A study of Mus musculus with 5 samples.

Results

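Genes of the cell nucleus that encode mitochondrial proteins were examined among the RNAs pulled down with SAMD4 from mouse osteoblasts. Members were all listed intervals whose gene name belongs to complex I to IV of the respiratory chain, cytochrome c, ATP synthase, the CHCHD family, the import machinery, the mitochondrial ribosome or the SLC25 carriers. Phkg1 was added because it shares the interval of Chchd2. The rule found 17 of 673 listed intervals through 18 of 753 gene names, and it used names only, not reads. Some of these intervals also carry names outside the rule. The cells came from calvaria of FVB mice aged 5 to 7 postnatal days and homozygous for the piggyBac allele Samd4PB/PB. They had been immortalized with SV40 and then carried lentiviral Flag-Samd4, so every library, controls included, came from Samd4PB/PB cells in which SAMD4 was supplied by the tagged transgene. RNA was sequenced from 2 anti-Flag immunoprecipitations (IP), 2 IgG controls and 1 input. Each listed interval of the mm9 genome has 1 IP count and 1 IgG count of reads, with no value per library and none for the input, so no spread between replicates could be given. All tests and intervals given here therefore cover counting error of the reads only. They compare the sequenced libraries, not cultures or animals. The sources used here do not give the number of animals or cultures.

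Most mitochondrial proteins are encoded in the nucleus, translated in the cytosol and carried through the outer and inner membranes by import complexes. The respiratory chain passes electrons to oxygen and builds a proton gradient, and ATP synthase uses that gradient to make ATP. SAMD4 is the mouse homologue of Drosophila Smaug, an RNA-binding protein whose SAM domain recognises a hairpin with the loop letters CNGG and which represses translation of its target mRNAs. Osteoblasts, the cells that deposit bone matrix, have a high demand for ATP during matrix production.

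At 15 of them the interval lay on the exon that holds the 5′ UTR, with 16 to 46 IP reads and 0 to 4 IgG reads each. The other 2, named Atp5b and Timm23, touched no 5′ UTR and overlapped small nucleolar RNA (snoRNA) genes, with 190 and 222 IP reads but also 57 and 88 IgG reads. Where an interval on a 5′ UTR had IgG reads, its ratio of IP to IgG reads was 8 to 37, and the ratios of Atp5b and Timm23 were 3.33 and 2.52. In the exact two-sided binomial test against an even share of IP and IgG reads, with Benjamini-Hochberg adjustment over all 673 intervals, 17 of 17 passed at 0.05. The same test passed 100% of all listed intervals, because the table lists only intervals with more IP than IgG reads, so this count sets the members apart from nothing. The adjusted p-values given below for single members come from this test. They describe counting error and are no support for a member, since every listed interval passed. A stricter call required 15 or more IP reads, 0 IgG reads and 68 or more bases shared with the gene. It took 3 of the 17 intervals, Cyc1, Timm8a1 and Chchd2, or 17.6%, beside 13.8% of all intervals. Its limits are the fewest IP reads, the smallest overlap and the 0 IgG reads seen in the study's own list of genes enriched in the IP. The paper states no cutoffs for that list. The list holds Cyc1, and Phkg1 for the interval of Chchd2, so there the call repeats the list. It does not hold Timm8a1, so the call is not the study's own selection. Every listed interval had 15 or more IP reads, so that limit removed none. A call by size required a lower 95% bound of the ratio above 5. It took Cox5b, Atp5f1 and Chchd2, again 17.6%, beside 35.5% of all intervals. With IgG reads multiplied by 1.64, the weight behind the deposited p-values, the call by size took 0 of the 17 and 20.1% of all intervals, and with the expected share that this weight implies the call with 0 IgG reads kept Chchd2 alone of the members, beside 9.21% of all.

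**Figure D1:**
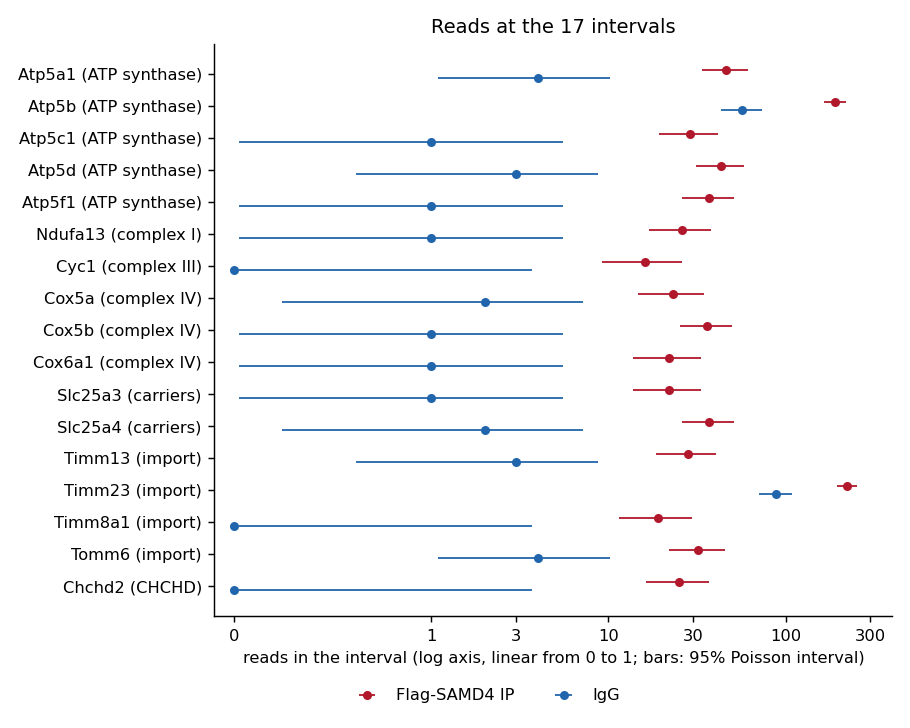
IP reads (red) and IgG reads (blue) at each of the 17 intervals, 1 pooled value per arm, with 95% Poisson intervals, on an axis that is logarithmic above 1 and linear from 0 to 1. Only Atp5b and Timm23 stand above 100 IP reads, and they are also the only intervals with more than 4 IgG reads.

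ATP synthase was the family with the most listed genes. Its F1 part, the catalytic head, a subset looked at after the listed names were known, had 4 of its 5 subunit genes listed, beside 2.58% of protein-coding genes: Atp5a1 (alpha), Atp5b (beta), Atp5c1 (gamma) and Atp5d (delta). The fifth, Atp5e (epsilon), had no listed interval, and without Atp5b, whose reads cannot be assigned to its mRNA, the count is 3. Atp5f1, now called Atp5pb, encodes subunit b of the peripheral stalk that holds the head in place. Its interval, chr3:105761860-105762211 on the minus strand, held 37 IP reads and 1 IgG read. The ratio of 37 was the highest point value among the members, with a 95% interval of 6.24 to 1.5e+03 and an adjusted p of 4.59e-10 by the exact binomial test. Atp5a1 (chr18:78012723-78012849, plus strand) had 46 IP and 4 IgG reads, a ratio of 11.5 (4.2 to 44). Atp5d (chr10:79605065-79605395, plus strand) had 43 and 3, a ratio of 14.3 (4.59 to 72.2). Atp5c1 (chr2:10001839-10002106, minus strand) had 29 and 1, a ratio of 29 (4.81 to 1.18e+03). The 4 intervals of Atp5a1, Atp5c1, Atp5d and Atp5f1 did not differ in ratio beyond their counting error, since each interval of the ratio covered the values of the others. Per 100 bases, the reads ordered these genes differently. Atp5a1 had 36.2 IP reads per 100 bases and Atp5f1 10.5, the lowest among the members, because the Atp5f1 interval was 352 bases long and that of Atp5a1 127.

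Of the electron transport chain, complex I had Ndufa13, complex III had Cyc1 and complex IV had Cox5a, Cox5b and Cox6a1. Cyc1 encodes cytochrome c1, which hands electrons to cytochrome c. Its interval (chr15:76173983-76174122, plus strand) held 0 IgG reads and 16 IP reads (9.15 to 26, 95% Poisson interval). That is 5.33 times a floor of 3 IgG reads per interval, and the lower 95% bound of the ratio was 3.86. It was the shallowest member, with an adjusted p of 3.08e-05 in the exact binomial test. Cox5b, a structural subunit of cytochrome c oxidase, had 36 IP reads and 1 IgG read at chr1:36748404-36748551 on the plus strand. That gave a ratio of 36 (6.06 to 1.46e+03) and an adjusted p of 8.54e-10 in the exact test. Cox6a1, the form of subunit VIa found outside heart and skeletal muscle, had 22 and 1 (ratio 22, 3.56 to 908). Cox5a had 23 and 2 (ratio 11.5, 2.84 to 101). The 95% intervals of the complex IV genes overlapped. Ndufa13, also known as GRIM-19, is a complex I subunit and had 26 IP reads and 1 IgG read, a ratio of 26 (4.27 to 1.07e+03).

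Both listed carriers supply ATP synthase. Slc25a3 brings phosphate into the matrix, and Slc25a4 exchanges ADP for ATP across the inner membrane. Slc25a4 (chr8:47296166-47296373, minus strand) had 37 IP and 2 IgG reads, a ratio of 18.5 (4.77 to 158). Slc25a3 (chr10:90586643-90586742, minus strand) had 22 and 1, a ratio of 22 (3.56 to 908). Its interval, 100 bases long, was the shortest of the 17.

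Import was represented by Timm8a1, Timm13, Timm23 and Tomm6. TIMM8A and TIMM13 form a chaperone complex of the intermembrane space that escorts hydrophobic precursors, TIMM23 is the channel of the inner membrane, and TOMM6 is a small subunit of the outer membrane translocase. Timm8a1 (chrX:131075996-131076171, minus strand) had 19 IP reads (11.4 to 29.7) and 0 IgG reads, 6.33 times the floor of 3 IgG reads. Its partner Timm13 (chr10:80363340-80363539, minus strand) had 28 IP and 3 IgG reads, a ratio of 9.33 (2.88 to 48). The lower 95% bound of the Timm8a1 ratio, 4.67, lay inside the Timm13 interval, so the pair could not be told apart at this depth. Tomm6 (chr17:47824838-47825013, minus strand) had 32 and 4. Its ratio of 8 (2.84 to 31.1) was the lowest point value among the members on a 5′ UTR with IgG reads. The Tomm6 interval carried other gene names. It covered 166 bases annotated as 3′ UTR of a Prickle4 transcript on the same strand, and all 176 bases lay on the noncoding RNA Gm14872 on the opposite strand. The sources used here do not say whether strand was counted, so reads of these genes cannot be told apart there.

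Chchd2 encodes a small protein of the intermembrane space that also acts in the nucleus on an oxygen-responsive promoter of a complex IV subunit. Its interval (chr5:130363014-130363175, minus strand) held 25 IP reads (16.2 to 36.9) and 0 IgG reads. That is 8.33 times the floor of IgG reads, and the lower 95% bound of the ratio was 6.29. The adjusted p was 7.51e-08 by the exact binomial test. It was the only member taken by both calls on reads as listed, and the call by size was lost with the weight of 1.64. Phkg1, the muscle form of the catalytic subunit of phosphorylase kinase, is not mitochondrial. All 162 bases of the interval lay in an intron of a single long Phkg1 transcript, whereas 108 of them lay on the exon of Chchd2 with its 5′ UTR.

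**Figure D2:**
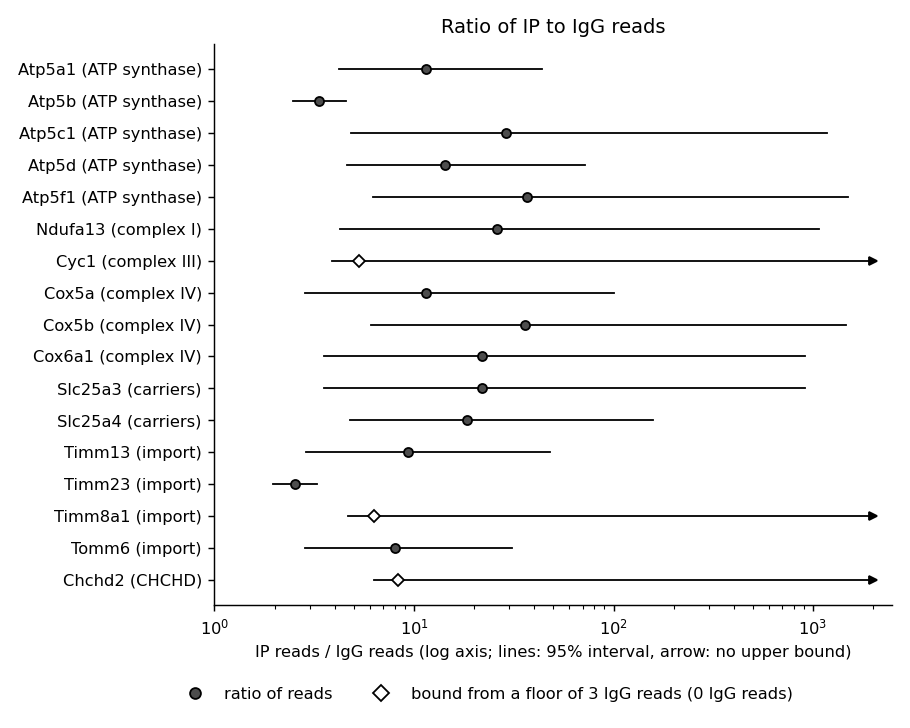
Ratio of IP to IgG reads for the 17 intervals on a logarithmic axis, with 95% intervals. Open diamonds, labelled as bounds, are ratios over a floor of 3 IgG reads (Cyc1 5.33, Timm8a1 6.33, Chchd2 8.33). Their lower 95% bounds are 3.86, 4.67 and 6.29, and arrows have no upper bound. Atp5b at 3.33 and Timm23 at 2.52 are the lowest and have the narrowest intervals.

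Atp5b and Timm23 differed from the rest in what their intervals covered. The Atp5b interval (chr10:127520923-127521212, plus strand) spanned 183 coding bases, 107 bases of the introns on either side and 14 bases of SNORD59, a box C/D snoRNA, and it lay inside an intron of long Baz2a transcripts on the same strand. It had 190 IP reads (164 to 219) and 57 IgG reads (43.2 to 73.9), a ratio of 3.33 (2.47 to 4.56) with an adjusted p of 1.96e-17 by the exact binomial test. The Timm23 interval (chr14:33005041-33005229, minus strand) lay wholly within an intron of the RefSeq transcript. All of its 189 bases fell on SNORA74, a box H/ACA snoRNA annotated over 197 bases, and 103 of them on an exon of a noncoding Timm23 transcript. It had 222 IP reads (194 to 253) and 88 IgG reads (70.6 to 108), a ratio of 2.52 (1.96 to 3.27) with an adjusted p of 3.99e-14 in the exact test. Their lower p-values thus came with lower ratios and more reads. At Atp5b, reads of the host mRNA, its precursor and the snoRNA cannot be told apart. At Timm23 the reads were counted on bases that are not part of the coding mRNA. Reads of its precursor, the noncoding transcript and the snoRNA cannot be told apart there.

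The 14 other listed intervals that carry a snoRNA or scaRNA name, the latter being the Cajal body relatives of snoRNAs, had ratios of 2.57 to 9.25. Atp5b at 3.33 lay within this range and Timm23 at 2.52 just below its lowest point value. The interval of Snhg4 and Snora74a, which also belongs to the SNORA74 family, had 773 IP and 259 IgG reads, a ratio of 2.98 (2.59 to 3.45) that overlapped that of Timm23. All 16 snoRNA and scaRNA intervals, the pair of mitochondrial names included, had IgG reads, whereas 97 of all 673 intervals had 0. Having IgG reads is thus common and not particular to snoRNA names. Intervals without such a name also had counts near those of Atp5b and Timm23, such as 190 IP and 72 IgG reads or 223 and 87. Others of that depth had few IgG reads, such as 220 and 0.

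The number of IP reads limits the ratio an interval can show, so the 15 intervals on a 5′ UTR were set beside the 185 other intervals with 16 to 46 IP reads. The median of IP reads over IgG reads plus 1 was 12.3 for the 15 and 12 for the 185. The call with 0 IgG reads took 20% of the first and 29.7% of the second, and the call by size 20% and 26.5%. The 185 were matched on IP reads only, and 63.8% of them touched a 5′ UTR, so the sets also differ in gene part. Over all intervals the median was 8.33, and over all 17 members 11. No test was made between these sets, since intervals are not replicates.

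**Figure D3:**
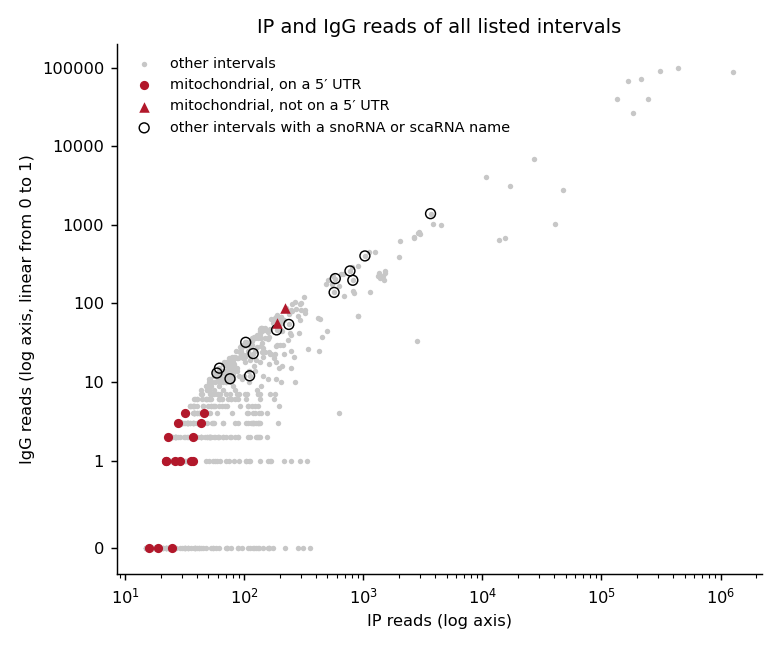
IgG reads against IP reads of all 673 listed intervals, both logarithmic (IgG linear from 0 to 1), with the 15 mitochondrial intervals on a 5′ UTR as filled circles, Atp5b and Timm23 as triangles, and the 14 other intervals with a snoRNA or scaRNA name as open circles. The filled circles sit at the shallow end, from 16 to 46 IP reads. The triangles sit among the open circles and also near other intervals without such a name.

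Most mitochondrial intervals lay at the 5′ part of a gene. A 5′ UTR was touched by 15 of the 17 intervals (88.2%), beside 55.3% of all intervals. Coding bases were touched by 88.2% and 72.8% of members and all intervals, introns by 70.6% and 60%, and a 3′ UTR by 5.88% and 14.7%. Depth differed between these sets. Of the 185 other intervals with 16 to 46 IP reads, 63.8% touched a 5′ UTR, 80.5% coding bases, 53% introns and 2.7% a 3′ UTR. The single member with a 3′ UTR was Tomm6, through Prickle4. Across the 15 genes, on 1 RefSeq transcript each (for Atp5c1 that with the shorter first exon), the intervals summed to 2878 bases, of which 803 were 5′ UTR, 1364 coding and 652 intron. Coding bases were present in 14 of the 15, between 40 and 141 bases each. Slc25a3 had none, as its exon there is wholly 5′ UTR.

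On the transcripts plotted here, 1 RefSeq transcript for each gene, all 15 intervals reached the downstream end of the exon that holds the 5′ UTR. Atp5c1 has a second RefSeq transcript with a longer first exon of 798 bases, and on it all 268 bases of the interval were 5′ UTR and the interval ended inside the exon. In Atp5a1, Cox5a, Cyc1, Slc25a4 and Timm8a1 the interval ended on the last base of the exon. In the other 10 genes it ran on into the intron by 10 to 206 bases, with a median of 36.5. The shortest extensions were those of Tomm6 (10 bases), Cox5b (17) and Slc25a3 (18), and the longest those of Ndufa13 (114), Atp5c1 (136) and Atp5f1 (206). In these last 3 genes the interval held more intron than exon bases, for Atp5c1 only on the transcript with the shorter first exon. An interval end at the end of a first exon was found in 29.4% of members, beside 22.4% of all intervals. It was found in 33.3% of the 15 members on a 5′ UTR and in 45.9% of the 185 others with 16 to 46 IP reads, of which 63.8% touched a 5′ UTR.

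**Figure D4:**
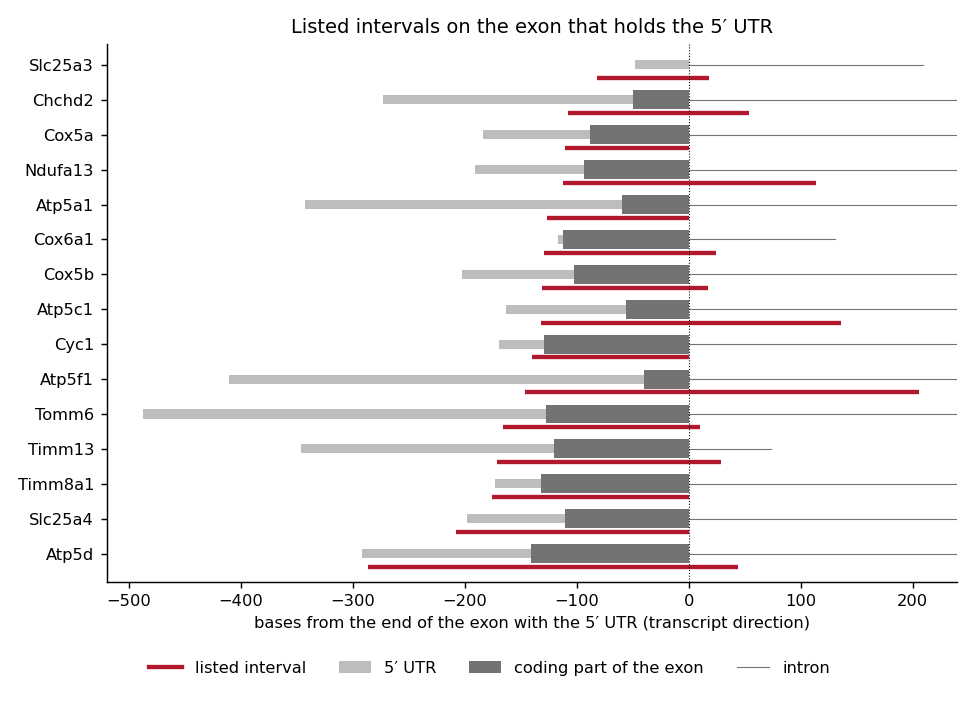
The 15 intervals on a 5′ UTR (red) under the exon that holds the 5′ UTR (light grey, 5′ UTR; dark grey, coding part; thin line, following intron), with the x axis in bases from the end of that exon in transcript direction. On the 1 RefSeq transcript drawn for each gene, intervals end at 0 in 5 genes and past it in 10, by up to 206 bases in Atp5f1; on the other Atp5c1 transcript its interval ends inside the exon.

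The upstream ends varied more from gene to gene. For 13 genes the exon was the first exon of the RefSeq transcript. There the interval began at or before the annotated transcript start in 4 genes, by 34 bases in Slc25a3, 12 in Cox6a1, 10 in Slc25a4 and 3 in Timm8a1. It began within the first 50 bases in Atp5d (5 bases after the start), Cyc1 (30) and Atp5c1 (31). In the other 6 genes it began 72 bases (Cox5b) to 322 bases (Tomm6) after the start, so these intervals covered the part of the exon around the start codon and left out the most upstream 5′ UTR. For Atp5f1 and Ndufa13 the 5′ UTR bases lay on a later exon of the gene, 955 and 905 bases from its RefSeq start.

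Gene starts were searched for CNGG, the loop letters that the SAM domain of Smaug proteins recognises. RefSeq start windows of GRCm38.p6, from 250 bases before to 50 bases after a gene's start, were at hand for 10 of the 13 genes. The letters occurred on the gene's strand within the first 50 bases of 7 of them (70%), beside 71.3% of 27025 genes in the same table, and within the whole window of 10 of 10, beside 98.5%. A CNGG flanked by a possible stem of at least 4 base pairs, with up to 3 further loop bases, was found in the first 50 bases of 2 of the 10, Atp5c1 and Cox5b, beside 10.5% of all genes. The Cox5b stem reaches 4 pairs only by counting 2 pairs of G with U, printed as t. The first capital C of Cox5b is itself a paired stem base. Thus the letters were about as frequent at these gene starts as elsewhere. For the letters with a stem, 2 genes are too few to compare the shares, and no test was made. The following 30-base stretches are shown because the intervals of Cox6a1, Slc25a4 and Timm8a1 reach the gene start in mm9. Atp5c1 and Cox5b are shown for their stems, although the Cox5b interval begins 72 bases downstream of its start. The Atp5c1 interval begins 31 bases after the start of its RefSeq transcripts. The Atp5c1 stem belongs to 1 of 2 annotated starts printed here, which were not matched to those transcripts. Capitals mark CNGG, with overlapping matches run together, and each reads 5′ to 3′ on the gene's strand.
Atp5c1, chr2:10080383-10080412, minus strand, bases 21 to 50, with the stem: ggctccaccatgttctcgCGGGcgagcgtt
Atp5c1, chr2:10080465-10080494, minus strand, bases 17 to 46 of another annotated start: gagaccgaggacgCAGGcggagCGGGCCGG
Cox5b, chr1:36691487-36691516, plus strand, bases 1 to 30, with the stem: agcggaagactgaCCGGGcgttgttagact
Cox6a1, chr5:115348909-115348938, minus strand, bases 21 to 50: gcggtgctgtcagcgtctCGGGtctctcgg
Slc25a4, chr8:46211023-46211052, minus strand, bases 11 to 40: ggagggctgcggtCAGGCGGGcggtccctt
Timm8a1, chrX:134541641-134541670, minus strand, bases 1 to 30: gtagttCCGGttccgtcacccagacacgtg
These coordinates belong to another build than the intervals, and the sequences were not placed on the mm9 intervals. A match is a description of the letters and not a site. The windows end 50 bases after the start, and exon sequence beyond that point was not searched.

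Coverage of the families was uneven. Among RefSeq protein-coding genes whose symbols follow the same name rule, 17 of 270 (6.3%) had a listed interval, beside 565 of 21900 protein-coding genes in all (2.58%). ATP synthase had 5 of 17 (29.4%), import 4 of 26 (15.4%), the CHCHD family 1 of 8 (12.5%), complex IV 3 of 27 (11.1%), complex III with cytochrome c 1 of 10 (10%), the carriers 2 of 47 (4.26%) and complex I 1 of 49 (2.04%). Without Atp5b and Timm23, whose reads cannot be assigned to the host mRNA, ATP synthase had 4 of 17 (23.5%), import 3 of 26 (11.5%) and all families 15 of 270 (5.56%). Tomm6 was kept in these counts, although its reads cannot be told apart from those of Prickle4 and Gm14872. Complex II had 0 of 8 and the mitochondrial ribosome 0 of 78. These symbol families also hold assembly factors and genes little used in bone, and the shares were not tested. The table gives no level of the mRNAs in the input, so a gene without an interval cannot be told apart from one expressed too little to be listed.

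Other nuclear genes for mitochondrial proteins, outside the name rule, were looked for from a list of 89, and 7 of them had an interval, where 2.58% of all protein-coding genes had one. Immt encodes a core subunit of the MICOS complex at cristae junctions. It had 22 IP and 0 IgG reads, 7.33 times the floor of IgG reads, with a lower 95% bound of the ratio of 5.48. Idh3b, of the citric acid cycle enzyme isocitrate dehydrogenase, had 19 and 0 (6.33 times the floor, lower 95% bound 4.67). These met the call with 0 IgG reads, whose limits were read from the study's own list, and that list holds Immt but not Idh3b. Immt and the malate dehydrogenase gene Mdh2 (33 and 1 reads, ratio 33, 5.52 to 1.34e+03) met the call by size. The calls thus took 2 of 7 each, beside 13.8% and 35.5% of all intervals. The remaining 4 had lower point values. They were 12.8 (4.69 to 48.6) for the chaperone gene Hspa9, 11.5 (2.84 to 101) for Shmt2 of serine and glycine metabolism, 7.4 (2.9 to 24.1) for the aminotransferase gene Got2 and 7 (3.59 to 15.2) for the prohibitin gene Phb2. A 5′ UTR was touched by 5 of the 7, beside 55.3% of all intervals, Idh3b and Shmt2 being the exceptions. No gene name of the mitochondrial genome itself was in the table. As a check of the cell label, Col1a1 was the only 1 of 9 osteoblast markers with an interval, and none of the markers of chondrocytes, adipocytes, muscle or macrophages, 3 for each, had one. The table lists enriched intervals rather than expression, so this does not measure the cells' identity.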

How the data were processed

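The deposited table pairs each of 673 mm9 intervals with the transcripts it touches, in 16285 lines. The authors deposited for each interval a count of IP reads and a count of IgG reads, not normalized. The sources used here do not name the interval caller, the total depth or whether paired libraries were pooled. Reads had been aligned with TopHat2 2.0.9 per the submitters' notes. Listed counts summed to 3260616 IP and 567264 IgG reads, and the 10 deepest intervals held 93.7% of the IP reads. For the IgG libraries the antibody label says Flag, whereas titles and sources say IgG, which was followed. The deposited p-value column was read only to find the factor of 1.64 by which the authors' p-values weight IgG counts (560 of 560 testable intervals, relative tolerance 0.0001). The deposited fold and q-value columns hold the authors' comparisons and were not used.

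IP and IgG counts were compared by exact two-sided binomial tests at a share of 0.5, with Benjamini-Hochberg adjustment over 673 intervals (threshold 0.05). The call with 0 IgG reads also required p up to 6.1e-05. Ratios have Clopper-Pearson and counts Poisson 95% intervals. The floor was 3 reads. Ratios over it do not include counting error in the IP. Gene parts and the overlapping bases came from the deposited transcript lines, with starts printed 1-based. Of 753 gene names, 652 matched a RefSeq symbol (GRCm38.p6). Members with 0 IgG reads, the 5 with most IP reads and the 5 with the highest and lowest ratios were given in full. The members, lists and the rule for naming genes were chosen with earlier results of these data known. Tests were tried on simulated counts first. Python 3.11.15, scipy 1.17.1, pandas 2.3.3, numpy 2.4.6 and matplotlib 3.10.9 were used.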

Additional observations from a re-analysis of the deposited data

How the results depend on the processing

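Of the 3 intervals called with 0 IgG reads, 1 (Chchd2) remained at a p limit of 1e-06 or at the expected IP share of 0.621 implied by the factor of 1.64 (9.21% of all intervals in each case), and 0 at the IP share of all listed reads, 0.852 (3.42%). Allowing up to 1 IgG read gave 9, beside 22.7% of all intervals. These 9 all lie at 16 to 46 IP reads. The 185 other intervals of that depth had a median of 2 IgG reads, beside 6 over all intervals. The 22.7% is thus not a share at like depth. At the share of 0.852 the exact binomial test with Benjamini-Hochberg adjustment called 0 of 17 members, beside 25.3% of all intervals, and at 0.621 it called 17. The 3 intervals with a lower bound above 5 became 0 when IgG reads were multiplied by the factor, 12 at a bound above 3 and 0 at a bound above 10, beside 20.1%, 71.9% and 15.9% of all intervals. Multiplying IgG reads by 1.64 lowered Atp5b to 2.04 and Timm23 to 1.54. It lowered the ratios of Chchd2, Timm8a1 and Cyc1 over the floor to 5.09, 3.87 and 3.26. The median ratio of members was 12.7 without intervals shared with other genes, 11 with an exon of the member required and 12.3 on 5′ UTRs alone, a setting added after seeing the data. The counts of intervals on a 5′ UTR were 15 and 14 under their alternatives. Lifting the overlap limit or the limits on p and IP reads left 3 intervals, and counting gene names gave 4. No paired analysis was possible because the table gives 1 number for IP and 1 for IgG at each interval, without the replicate numbers of the libraries. Most members have 0 to 4 IgG reads, which leaves ratio intervals too wide to order them.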
